A study of Mus musculus with 144 samples.

Results

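Probes 1380, 1416, ORB_0409082 and 2010 are 4 mouse probes of a microRNA (miRNA) array that was hybridised with blood RNA from mice exposed to multi-walled carbon nanotubes (MWCNTs). They were chosen by their rank among the probes that were higher with 40 µg MWCNT than with the dispersion medium (DM). Probes 1380, 1416 and ORB_0409082 had the smallest p values in that direction at month 1, and probe 2010 had the smallest at month 12. They are 4 of the 742 mouse probes that were tested and of the 1262 mouse probes in the deposited table. The mice were male C57BL/J6, obtained at 7 weeks of age, and received DM as the negative control, MWCNT at 1 of 4 doses (1, 10, 40 and 80 µg), or crocidolite asbestos at 120 µg as the positive control. Mice were sacrificed 1, 6 or 12 months later. This gave 18 groups of 8 mice and 144 arrays, with 1 mouse on each array. No group was left untreated, a single MWCNT lot was used, and RNA was isolated from blood without a stated separation of its cells.

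miRNAs are short RNAs that are loaded into Argonaute proteins and pair, mainly through their seed, with target mRNAs, which lowers translation or stability of those mRNAs. In whole blood most of the miRNA comes from red cells, platelets and white cells, and a small part circulates outside cells in vesicles or bound to protein. MWCNTs are nested cylinders of carbon sheets. Stiff fibres that the lung does not clear are known for lasting inflammation and scarring there. Crocidolite is an amphibole asbestos with a related shape. In blood RNA of this kind, a shift in the cells that carry a miRNA and a change in its level per cell cannot be told apart.

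No file used here gives the miRNA that a probe identifier stands for. The 4 probes are therefore given by identifier, no mature sequence or target is shown, and the markers of blood cell types could not be looked up to check the labelled tissue. Arrays resembled each other, with correlations over the tested probes between 0.894 and 0.997 (median 0.989), and no 2 arrays held identical values. The detection threshold was passed by 486 to 1171 mouse probes per array, and by 411 of the tested probes on all 144 arrays. Median brightness of the arrays before scaling, as log2 intensity over those 411 probes, averaged 8.88 in DM at month 6 and between 9.07 and 9.58 in the other 17 groups.

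The 4 probes were measured well above background throughout. Each was above threshold on 144 of 144 arrays, and none of the 432 spots of any of them was saturated or marked bad. Probe 1380 had background-subtracted intensities from 570 to 4233 with a median of 2053. Probe 1416 ranged from 1302 to 18062 with a median of 6348. Probes ORB_0409082 and 2010 lay closer to the thresholds, which were between 13.0 and 62.6 intensity units. Probe ORB_0409082 ranged from 55.7 to 477 with a median of 194, and probe 2010 from 72.7 to 431 with a median of 199. All later values are log2 intensities after background correction with an offset of 50 and quantile normalization, so differences of these dimmer probes are compressed. The 3 spots of a probe on an array had a median SD of 0.20 for probe 1380, 0.15 for probe 1416, 0.16 for probe ORB_0409082 and 0.15 for probe 2010.

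At month 1 the 3 probes ranked highest there were higher with 40 µg MWCNT than with DM. These are the values that chose them, so they are a description and carry no test. Probe 1380 had log2 intensities from 10.22 to 11.17 (median 10.71) in the 8 DM mice. With 40 µg MWCNT it had 10.98 to 11.81 (median 11.20). The groups overlapped, with 4 of the 8 exposed mice above the highest DM mouse. The means differed by 0.56 ± 0.15 (SE), a fold of 1.48.

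Probe 1416 had 11.39 to 12.93 (median 12.19) in DM and 12.42 to 13.69 (median 12.67) with 40 µg MWCNT at month 1. Only 2 of the 8 exposed mice lay above the highest DM mouse, so the ranges overlapped widely. The difference was 0.65 ± 0.19, a fold of 1.57. Probe ORB_0409082 had 7.49 to 7.85 (median 7.61) in DM and 7.69 to 8.72 (median 8.08) with 40 µg MWCNT. Here 5 of the 8 exposed mice lay above every DM mouse. The difference was 0.51 ± 0.15, a fold of 1.42.

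Probe 2010 was chosen in the same way at month 12. It had 7.54 to 8.05 (median 7.74) in DM and 7.87 to 8.83 (median 8.19) with 40 µg MWCNT, a difference of 0.46 ± 0.12 and a fold of 1.38. The groups overlapped, and 5 of the 8 exposed mice lay above the highest DM mouse. All 8 exposed mice lay above the DM median for each of the 4 probes in the month that chose it. Over all tested probes, 3.37% had all 8 arrays of the 40 µg group above the DM median at month 1, 3.77% at month 6 and 2.29% at month 12. The share of tested probes that was higher with 40 µg MWCNT at an unadjusted p under 0.05 was 6.74% at month 1, 5.8% at month 6 and 2.16% at month 12. With the threshold of the study's methods (unadjusted p under 0.05, Benjamini-Hochberg adjusted p under 0.10 and a fold of 1.5 or more), limma called 0% of the tested probes in each of the 3 months, so the 4 probes are ranked probes and not called ones. Without adjustment, 79 probes had a p under 0.05 in either direction at month 1, 123 at month 6 and 33 at month 12. A test of the 2 groups alone, as in those methods, also called 0 probes in each month.

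The choice followed p and not the size of the difference. At month 1 the next probe in the same direction was 2733, with a difference of 0.30 ± 0.09, against 0.51 ± 0.15 for ORB_0409082, the last of the 3 inside. At month 12 the next probe after 2010 was ORB_1210155, with 0.41 ± 0.12 against 0.46 ± 0.12.

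**Figure D1:**
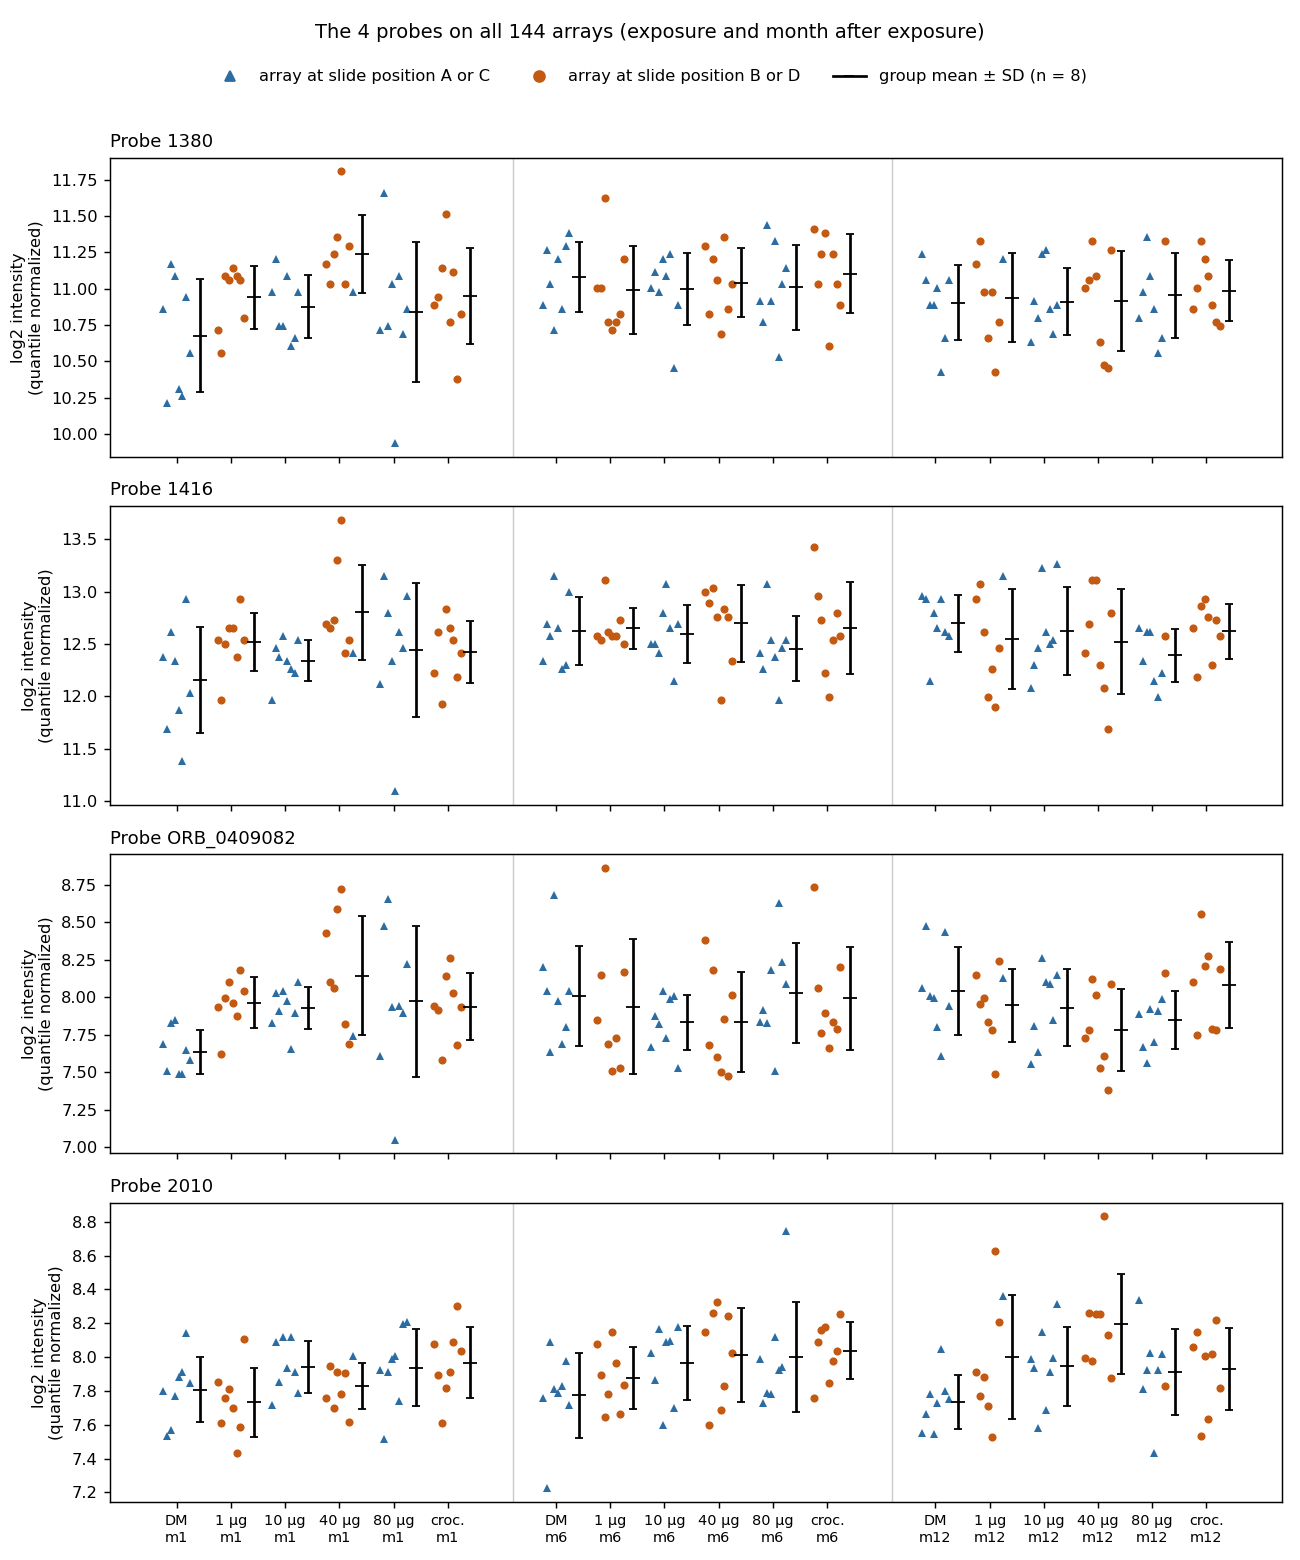
Log2 intensity of the 4 probes on all 144 arrays, by exposure and month (m1, m6, m12); each point is 1 mouse, coloured by slide position, and the bars are the mean ± SD of 8 mice. The month 1 group with 40 µg MWCNT has the highest mean of 18 for probes 1380 (11.24), 1416 (12.80) and ORB_0409082 (8.14), and the month 12 group with 40 µg the highest for probe 2010 (8.20). These groups were used to choose the probes.

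The same few mice gave the extreme values of the 3 month 1 probes. Replicate 5 of the 40 µg group was the highest of that group in all 3, at 11.81 for probe 1380, 13.69 for probe 1416 and 8.72 for probe ORB_0409082. Without it the differences from DM were 0.48, 0.52 and 0.43. On the DM side, replicates 2, 5 and 6 had the lowest values, at 10.22, 10.31 and 10.27 for probe 1380 and at 11.69, 11.87 and 11.39 for probe 1416. For probe ORB_0409082 replicates 5 and 6 were lowest, both at 7.49.

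Whether the other exposures shared the higher level was read from the month that chose each probe. These comparisons use the same DM mice as the choice of the probes, so their values are set side by side with no test. At month 1 all 4 other exposures had a higher mean than DM for the 3 probes. For probe 1380 the differences from DM were 0.26 with 1 µg, 0.20 with 10 µg and 0.16 with 80 µg MWCNT, and 0.27 with crocidolite (each ± 0.15). For probe 1416 they were 0.36, 0.19, 0.29 and 0.27 (± 0.19) in the same order. For probe ORB_0409082 they were 0.33, 0.29, 0.34 and 0.30 (± 0.15).

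The fitted change from DM to 80 µg, linear in log2 of dose plus 1 over DM and the 4 MWCNT doses, was 0.25 ± 0.12, 0.32 ± 0.15 and 0.31 ± 0.12 for the 3 probes at month 1, and is also given with no test. The 80 µg group lay below the 40 µg group in all 3 probes, by 0.40, 0.36 and 0.17 in the order above. It was also the most spread group at month 1, with an SD of 0.48 for probe 1380, 0.64 for probe 1416 and 0.50 for probe ORB_0409082. Its replicate 5, at slide position A, had the lowest value of all 144 arrays for each of the 3 probes, at 9.94, 11.09 and 7.05. This array is 1 of 4 that the labels tie to a scan marked as a redip. Without it the 80 µg group differed from DM by 0.29, 0.48 and 0.47.

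At month 12 probe 2010 had differences from DM of 0.27 with 1 µg, 0.21 with 10 µg and 0.18 with 80 µg MWCNT and of 0.20 with crocidolite (each ± 0.12), beside 0.46 with 40 µg, and a fitted change with dose of 0.21 ± 0.10. The difference between 40 µg and DM can thus be divided at the mean of the other 4 exposures. For probe 1380 that mean lay 0.22 above DM and 0.34 below 40 µg. For probe 1416 it lay 0.28 above DM and 0.37 below 40 µg. For probe ORB_0409082 the larger step was on the DM side, at 0.32 against 0.19, and for probe 2010 the steps were 0.21 and 0.25. For all 4 probes the 40 µg group lay above each of the other 4 exposures in that month and DM lay below each of them. The difference between 40 µg and DM chose the probes, so this order and these steps follow in part from the choice and are a description.

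**Figure D2:**
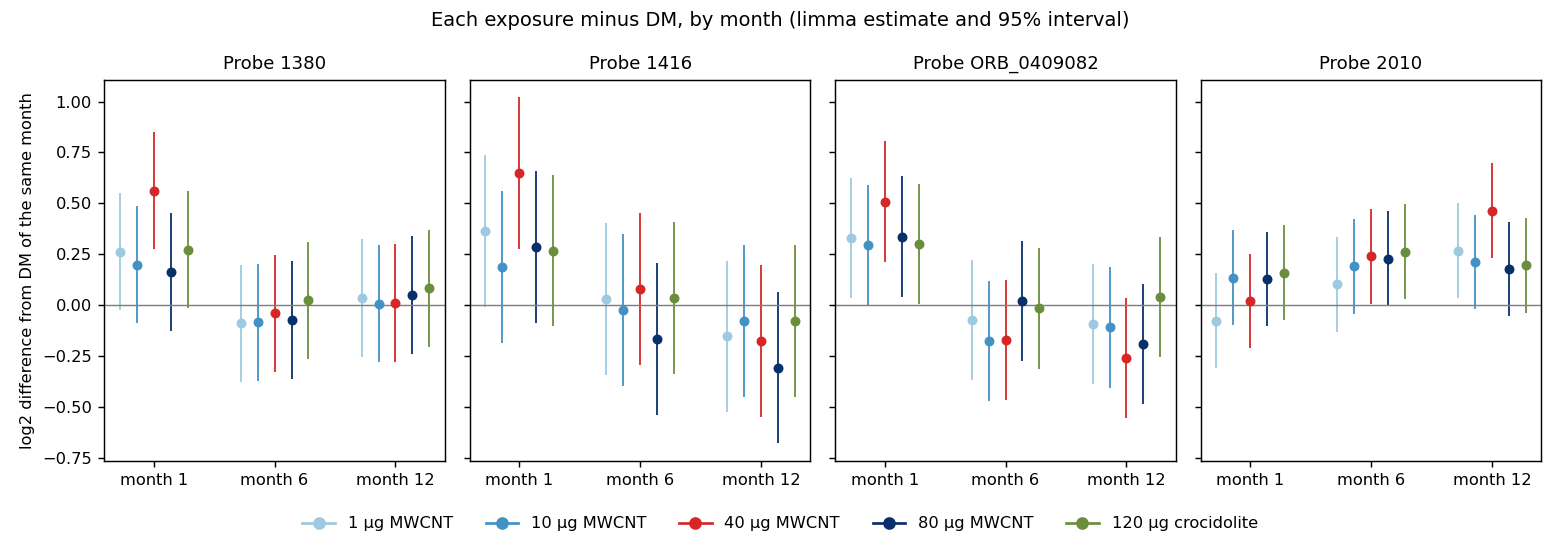
Log2 difference of each exposure from DM of the same month, with the 95% interval from limma; the 5 exposures of a month share the same 8 DM mice. At month 1 all 5 exposures lie above 0 for probes 1380, 1416 and ORB_0409082, between 0.16 and 0.65, and at months 6 and 12 these 3 probes lie between -0.31 and 0.08; probe 2010 lies above 0 for all 5 exposures at months 6 and 12.

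The months that did not choose a probe could be tested. At month 6 none of the 4 probes was called with 40 µg MWCNT, against 0% of all tested probes. Probe 1380 had 10.69 to 11.36 (median 11.05) with 40 µg and 10.72 to 11.39 (median 11.12) in DM, and the groups overlapped almost fully. The difference was -0.04 ± 0.15 (95% interval -0.33 to 0.25, limma adjusted p = 0.921). Probe 1416 had 11.96 to 13.04 (median 12.79) against 12.26 to 13.15 (median 12.61) in DM. No mouse of the 40 µg group lay above the highest DM mouse, and the difference was 0.08 ± 0.19 (interval -0.29 to 0.45, limma adjusted p = 0.87).

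Probe ORB_0409082 had 7.47 to 8.38 (median 7.77) with 40 µg and 7.64 to 8.68 (median 8.01) in DM at month 6. The exposed mice overlapped the DM mice and 3 lay below all of them. The difference was -0.17 ± 0.15 (interval -0.47 to 0.12, limma adjusted p = 0.572). At month 12 the differences of the 3 probes were 0.01 ± 0.15 for probe 1380 (interval -0.28 to 0.30), -0.18 ± 0.19 for probe 1416 (interval -0.55 to 0.20) and -0.26 ± 0.15 for probe ORB_0409082 (interval -0.55 to 0.04). The limma adjusted p was 0.995 for each. In exact permutation tests over the mice of both groups (two-sided, 12870 splits, 8 tests), p was 0.741 and 0.933 for probe 1380 at months 6 and 12, 0.656 and 0.395 for probe 1416, and 0.323 and 0.0903 for probe ORB_0409082. The difference between 40 µg and DM at month 6 minus that at month 1 was -0.60 ± 0.21 for probe 1380, -0.57 ± 0.27 for probe 1416 and -0.68 ± 0.21 for probe ORB_0409082, which is a description with no test because the month 1 values chose the probes.

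Probe 2010 showed the opposite order of months. At month 1 it had 7.62 to 8.01 (median 7.84) with 40 µg and 7.53 to 8.14 (median 7.82) in DM, with complete overlap and a difference of 0.02 ± 0.12 (interval -0.21 to 0.25, limma adjusted p = 0.967, exact permutation p = 0.803). At month 6 it had 7.60 to 8.32 (median 8.09) against 7.22 to 8.09 (median 7.80), and 4 of the 8 exposed mice lay above the highest DM mouse. The difference was 0.24 ± 0.12 (interval 0.01 to 0.47). It passed at an unadjusted p of 0.0429 but not after adjustment (limma adjusted p = 0.287), and the exact permutation p was 0.0911. The lowest DM mouse of that month, replicate 2 at 7.22, was also the lowest of all 144 arrays for this probe.

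In the 3 month 1 probes both the DM and the 40 µg mean lay nearer to the other groups at the later months. From month 1 to months 6 and 12 the DM mean was higher by 0.40 and 0.23 for probe 1380, by 0.47 and 0.55 for probe 1416, and by 0.37 and 0.41 for probe ORB_0409082. Over the same months the mean of the 40 µg group decreased by 0.20 and 0.32, by 0.11 and 0.28, and by 0.31 and 0.36. These values include the month that chose the probes and are a description. For probe ORB_0409082 the 40 µg mean was the lowest of the 6 groups at month 12 (7.78), at place 17 of all 18 groups. Over months 6 and 12 together, 40 µg minus DM was -0.22 ± 0.11 for this probe (limma unadjusted p = 0.0432, adjusted p = 0.291). It was -0.01 ± 0.10 for probe 1380 and -0.05 ± 0.13 for probe 1416. In probe 2010 the DM mean was lower than at month 1 by small steps (-0.03 and -0.07), and the 40 µg mean was higher by 0.19 and 0.37.

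The other 4 exposures, 96 mice, entered the p values behind the choice of the probes only through the shared estimate of the spread. Their means gave a test of the months alone. Over these exposures month 6 minus month 1 was 0.12 ± 0.07 for probe 1380, 0.16 ± 0.09 for probe 1416, -0.00 ± 0.07 for probe ORB_0409082 and 0.08 ± 0.06 for probe 2010. None of the 4 was called (limma adjusted p from 0.28 to 0.983), and 0.404% of all tested probes was. Month 12 minus month 1 was 0.05, 0.12, 0.00 and 0.05 in the same order, with limma adjusted p from 0.423 to 0.986, and again none was called, against 1.89% of all tested probes. The mean of these exposures thus lay within 0.16 of its month 1 level in all 4 probes.

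The other exposures were also tested against DM in the months that did not choose a probe. At month 6 the 4 differences of probe 1380 lay between -0.09 and 0.02, those of probe 1416 between -0.17 and 0.04 and those of probe ORB_0409082 between -0.18 and 0.02 (SE 0.15, 0.19 and 0.15). None of the 4 probes was called in any of these comparisons, where 0.27% of all tested probes was called with 80 µg and 0% with 1 µg, 10 µg and crocidolite. At month 12 the 3 month 1 probes had differences from -0.31 (probe 1416 with 80 µg, limma adjusted p = 0.894) to 0.08 (probe 1380 with crocidolite, limma adjusted p = 0.93), and none was called, against 0% of all probes.

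Probe 2010 at month 6 differed from the 3 others. All its exposures had a mean above DM, by 0.10 with 1 µg, 0.19 with 10 µg, 0.24 with 40 µg and 0.23 with 80 µg MWCNT and by 0.26 with crocidolite (each ± 0.12). The limma adjusted p was 0.882, 0.599, 0.287, 0.259 and 0.276, so none passed, and the 5 comparisons share the DM mice. Without DM replicate 2 the differences were 0.02, 0.11, 0.16, 0.15 and 0.18 in the same order. Without replicate 8 of the 80 µg group, its difference was 0.12 ± 0.12 (limma adjusted p = 0.584). The same linear trend in dose gave a fitted change of 0.22 ± 0.10 from DM to 80 µg for this probe (unadjusted p = 0.0239, limma adjusted p = 0.178). The fitted change was -0.03 for probe 1380, -0.09 for probe 1416 and -0.04 for probe ORB_0409082 at month 6. None of the 4 trends was called, against 0.135% of all tested probes. At month 12 the trend of the 3 month 1 probes was 0.02 ± 0.12, -0.21 ± 0.15 and -0.21 ± 0.12 (limma adjusted p = 0.98 for each), with 0% of the tested probes called. At month 1 probe 2010 had differences from -0.08 with 1 µg to 0.16 with crocidolite, and none was called.

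In the order of the 18 group means, 40 µg at month 1 came first and DM at month 1 last for probes 1380, 1416 and ORB_0409082. The difference between these groups chose the probes, as that at month 12 chose probe 2010, so their places are a description. The 16 groups between lay close together, at 10.84 to 11.10 for probe 1380, 12.34 to 12.70 for probe 1416 and 7.78 to 8.08 for probe ORB_0409082. For probe 1380 the first group was followed by crocidolite at month 6 (11.10), and for probe 1416 by DM at month 12 (12.70), a control group. For probe ORB_0409082 crocidolite at month 12 came next (8.08). Of the 17 gaps between neighbours in the order, 16 were smaller than the SE of a difference for probe 1380 and 17 for each of the others of month 1. The exception was the gap of 0.16 between DM and 80 µg at month 1. For probe 2010 the order began with 40 µg at month 12 (8.20), then crocidolite (8.04) and 40 µg (8.01) at month 6, and it ended with DM at month 12 and 1 µg at month 1, both at 7.73. Here 16 of 17 gaps were smaller than the SE, and the gap of 0.16 after the first group was the larger one.

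Slide position went with exposure. A slide carried 4 array positions, named A, B, C and D. All 24 DM arrays, all 24 arrays with 10 µg and 23 of 24 with 80 µg lay at A or C. Of the 24 arrays with 40 µg, 23 lay at B or D, as did 23 of 24 with 1 µg and all 24 with crocidolite. The comparison of 40 µg with DM was therefore also a comparison of B and D with A and C.

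The other exposures gave a comparison of the same positions in arrays whose group means did not enter the choice of the probes. Over the 3 months, 1 µg and crocidolite (B and D) minus 10 and 80 µg (A and C) was 0.05 ± 0.06 for probe 1380 (95% interval -0.06 to 0.17), 0.10 ± 0.08 for probe 1416 (-0.06 to 0.25), 0.05 ± 0.06 for probe ORB_0409082 (-0.07 to 0.17) and -0.03 ± 0.05 for probe 2010 (-0.12 to 0.07). The limma adjusted p was 0.799, 0.701, 0.81 and 0.863, and none was called, against 0% of all probes. In the month that chose it, the position difference was 0.09 ± 0.10 for probe 1380, 0.08 ± 0.13 for probe 1416, -0.00 ± 0.11 for probe ORB_0409082 and 0.04 ± 0.08 for probe 2010. Exposure and position cannot be told apart in this comparison either, since each position pair held other exposures.

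Set against other exposures of the same positions, 40 µg and DM each differed less than they did from each other. The 40 µg group was also closer to the exposures at the other positions, 10 and 80 µg, than to DM. At month 1 it lay above them by 0.36 and 0.40 for probe 1380, 0.46 and 0.36 for probe 1416 and 0.22 and 0.17 for probe ORB_0409082. For probe 2010 at month 12 it lay above them by 0.25 and 0.29. At month 1, 40 µg minus the mean of 1 µg and crocidolite was 0.29 ± 0.13 for probe 1380, 0.33 ± 0.16 for probe 1416 and 0.19 ± 0.13 for probe ORB_0409082, and at month 12 it was 0.23 ± 0.10 for probe 2010. DM minus the mean of 10 and 80 µg was -0.18 ± 0.13, -0.24 ± 0.16 and -0.32 ± 0.13 at month 1, and -0.20 ± 0.10 for probe 2010 at month 12. All of these use the arrays that chose the probes and are a description. In the other months 40 µg minus 1 µg and crocidolite lay between -0.23 (probe ORB_0409082, month 12) and 0.06 (probe 2010, month 6), with limma adjusted p from 0.969 to 0.999. DM minus 10 and 80 µg in those months lay between -0.21 and 0.19, and for probe 2010 at month 6 it was -0.21 ± 0.10 (unadjusted p = 0.0416, limma adjusted p = 0.278).

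**Figure D3:**
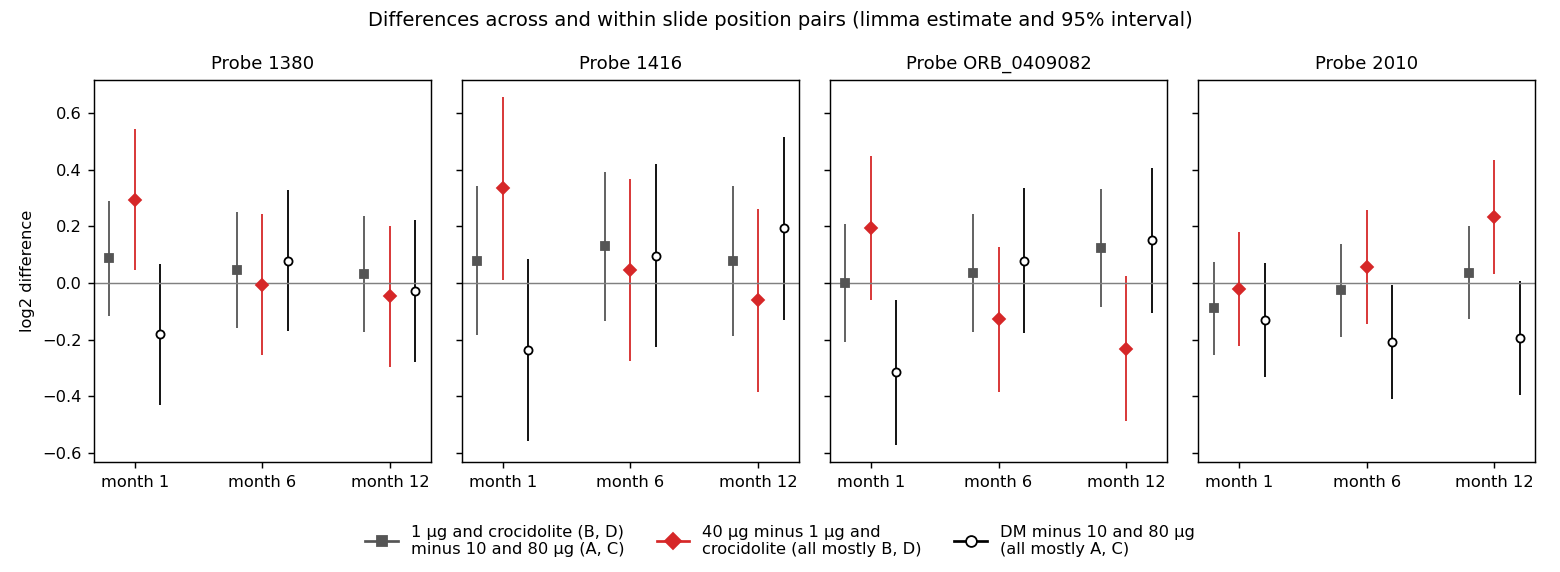
Log2 differences with 95% intervals from limma, by month: 1 µg and crocidolite minus 10 and 80 µg MWCNT (across position pairs, 2 arrays excepted), 40 µg minus 1 µg and crocidolite (within B and D, 2 arrays excepted) and DM minus 10 and 80 µg (within A and C, 1 array excepted). The first stays between -0.09 and 0.13 in all panels. Each position pair held other exposures, so this first difference cannot tell exposure and position apart. For the 3 month 1 probes at month 1, 40 µg lies above its position partners (0.29, 0.33 and 0.19) and DM below its own (-0.18, -0.24 and -0.32). These month 1 values use the arrays that chose the probes, so their signs follow in part from the choice and are a description.

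A single 40 µg array of month 1, replicate 8, lay at position A. It had 10.98 for probe 1380, 12.42 for probe 1416 and 7.74 for probe ORB_0409082, the lowest of the 8 for probe 1380, joint lowest for probe 1416 and next to lowest for probe ORB_0409082. Against the 5 DM arrays at A it was higher than 4, 5 and 4. The 7 other 40 µg arrays of that month, all at B or D, were higher than the 16 arrays of 1 µg and crocidolite there by 0.33, 0.39 and 0.25 on average, but only 1, 2 and 3 of the 7 lay above all 16. For probe 2010 at month 12 the 8 arrays with 40 µg were higher than 15 such arrays by 0.26, with 1 above all of them.

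The DM arrays differed by position. At month 1 the 5 DM arrays at A averaged 10.49 for probe 1380, and the 3 at C averaged 10.99. For probe 1416 the means were 11.86 and 12.64, where the highest array at A had 12.34 and the lowest at C 12.38. For probe ORB_0409082 they were 7.58 and 7.72. DM replicate 4, at A, was an exception, with 11.09 for probe 1380 and 7.85 for probe ORB_0409082, the highest DM value of that probe. Position was also fitted within groups over all 144 arrays, which include those that chose the probes, so its values are a description. In this fit C minus A was 0.15 ± 0.07 for probe 1380 and 0.14 ± 0.09 for probe 1416. It was -0.05 ± 0.07 for probe ORB_0409082 and -0.01 ± 0.06 for probe 2010. B minus D was between -0.08 and 0.06 in the 4 probes. The same fit gave B and D minus A and C as 0.08 ± 0.18, -0.05 ± 0.24, 0.22 ± 0.19 and -0.25 ± 0.15, but this rests on the 3 arrays that lay outside the usual positions of their exposure. With position as a term, 40 µg minus DM at month 1 was 0.48 for probe 1380, 0.68 ± 0.28 for probe 1416 and 0.32 ± 0.22 for probe ORB_0409082, and for probe 2010 it was 0.24 ± 0.17, 0.49 ± 0.19 and 0.71 ± 0.19 in months 1, 6 and 12. For probe ORB_0409082 it was -0.40 ± 0.24 at month 6 and -0.49 ± 0.24 at month 12, and for probes 1380 and 1416 it lay between -0.11 and 0.15 in these months. In the months that did not choose them, probe 2010 at month 6 (limma unadjusted p = 0.0106, adjusted p = 0.505) and probe ORB_0409082 at month 12 (0.0452 and 0.807) had the smallest p of the 4 probes. The position terms of these fits also draw on the arrays that chose the probes.

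**Figure D4:**
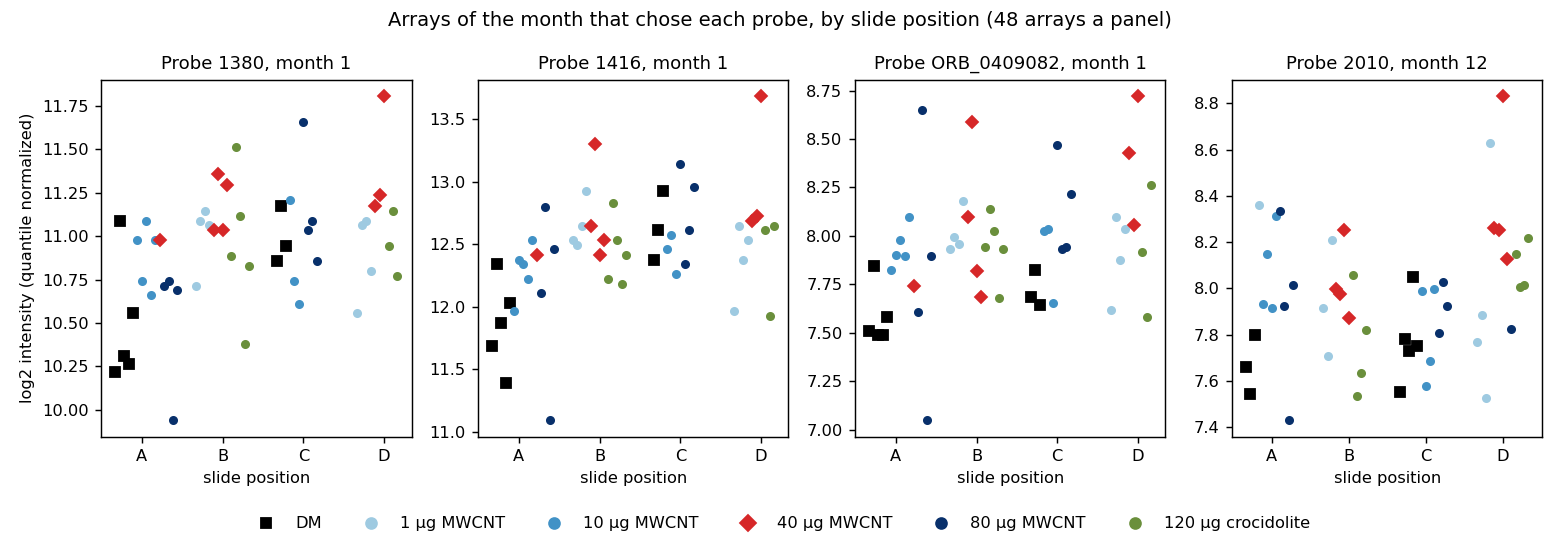
Log2 intensity of each probe at slide positions A to D in the month that chose it, 48 arrays a panel, coloured by exposure. DM arrays at A (10.49 on average for probe 1380 and 11.86 for probe 1416) average below those at C (10.99 and 12.64), and 40 µg arrays lie at B and D except 1 at A.

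On slides that held both, 40 µg could be compared with DM directly. At month 1 it was higher on 5 of 5 slides for each of the 3 probes chosen there, by a median of 0.31 for probe 1380 (lowest 0.07), 0.51 for probe 1416 (lowest 0.11) and 0.33 for probe ORB_0409082 (lowest 0.11). Probe 2010 at month 12 was higher on 5 of 5 slides, by 0.13 to 0.52 (median 0.43). These slides hold the arrays that chose the probes, so the counts in the chosen month follow in part from the choice. They are a description with no test. Of all tested probes, 4.58% were higher on every such slide at month 1, 0.943% at month 6 and 2.7% at month 12. In the months that did not choose them the probes were divided. Probe 1380 was higher on 2 of 6 slides at month 6 and 4 of 5 at month 12, probe 1416 on 3 of 6 and 4 of 5, probe ORB_0409082 on 2 of 6 and 3 of 5, and probe 2010 on 2 of 5 at month 1 and 4 of 6 at month 6. On each of these slides the 2 arrays lay at different positions.

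Arrays were scanned on 7 days, and 4 days held both groups of month 1. The difference was above 0 on all 4, at 0.17 to 1.15 for probe 1380, 0.06 to 1.67 for probe 1416 and 0.08 to 0.78 for probe ORB_0409082. The highest of each came from the day that held 2 arrays with 40 µg, replicate 5 among them, and 1 DM array. Probe 2010 differed by 0.13 to 0.78 on 5 of 5 days at month 12 and by 0.18 to 0.42 on 3 of 3 days at month 6, and at month 1 the 4 days gave -0.38 to 0.14. Each day held 1 to 4 arrays of a group. The month 1 values of the first 3 probes and the month 12 values of probe 2010 are those that chose them. Their signs over days are therefore a description with no test, and the share of all tested probes was not computed.

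Array brightness is given beside the probes because the arrays differed in it. Within groups, its correlation with the log2 intensity over 144 arrays was 0.18 for probe 1380, 0.04 for probe 1416, 0.06 for probe ORB_0409082 and -0.11 for probe 2010, where the 5th and 95th percentiles of the tested probes were -0.52 and 0.35. Brightness averaged 9.43 ± 0.34 (SD) with 40 µg and 9.39 ± 0.38 in DM at month 1, and 9.36 ± 0.28 and 9.32 ± 0.30 at month 12. With brightness as a term the differences in the chosen month were 0.56, 0.65, 0.51 and 0.47.

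The 3 month 1 probes varied together, also between mice of the same group. Over the 18 group means, which include those that chose them, the correlation of probe 1380 was 0.79 with probe 1416 and 0.65 with probe ORB_0409082, and that of probe 1416 with probe ORB_0409082 was 0.62. Within groups over 144 arrays the same pairs had 0.66, 0.46 and 0.60. The median tested probe had -0.01 with probe 1380, -0.02 with probe 1416 and 0.01 with probe ORB_0409082. For probes 1380 and ORB_0409082, probes outside the choice reached similar values within groups. Probe 1106 had 0.48 with probe 1380 and 0.64 with probe ORB_0409082, and probe 2922 had 0.57 with the latter. Probe 2010 had correlations with the 3 month 1 probes of -0.25 to 0.05 over group means and -0.25 to -0.01 within groups. Probes 1380 and 1416 lay in the same block of the array and probe ORB_0409082 in another. The probe whose group means were most like those of 1380 was 1106 (r = 0.84), for 1416 it was 1380 (0.79), for ORB_0409082 it was 2922 (0.76) and for 2010 it was ORB_1210155 (0.75), each over 18 groups that share arrays, slides and normalization.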

How the data were processed

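The authors labelled low-molecular-weight blood RNA with 1 fluorescent dye, hybridised it to custom multi-species arrays with 3 spots per probe, and scanned 4 arrays per slide with GenePix. The deposited scanner values are median foreground and local background intensities, linear and not normalized. The deposited table holds log2 normalized values. Subtracting background from unflagged spots, taking log2 and averaging gave the same values up to 1 constant per array (SD of the difference at most 1.2e-09), which fixes its scale. In the files used, 24 array positions without a sample were left out, and a repeat scan of 1 slide at another gain was not used. The labels tie 4 of the 144 arrays to a scan of their slide marked as a redip (10 and 80 µg at month 1, DM and crocidolite at month 12), and these scans were used.

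Groups were taken from the labels. In limma 3.58.1 (R 4.3.3), intensities were corrected by normexp (offset 50), taken to log2, averaged over spots and quantile normalized over 1262 mouse probes. A probe was above threshold when its intensity exceeded the 10% trimmed mean of 21 empty spots plus 5 SD, and tested when above it on all 8 arrays of a group (742 probes). The study's methods used negative control spots for the mean and took the SD from the background outside the spots. Fits had 18 group means over all 144 arrays. Adjusted p values (Benjamini-Hochberg) cover all tested probes. A probe was called at unadjusted p under 0.05, adjusted p under 0.10 and a fold of 1.5. The script was tested on simulated data. The number of arrays limits the precision, with a median SE of a difference of 0.11.

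The 4 probes and all tests were chosen with earlier results of these data known. Besides them, the text names the most alike probe of each and the next probe outside the choice. Alternatives covered the background correction and scaling, use of the deposited table, the filter on dim probes, terms for slide, scan day, position or brightness, the test, and single arrays left out. Fits without 2 DM arrays of month 6, the dimmest ones, without the 3 arrays outside their usual positions, without the 4 redip arrays, or without single arrays in comparisons of other exposures were added after seeing the data.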

Additional observations from a re-analysis of the deposited data

Results flagged for a closer look

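In 7 of the 72 combinations of probe and group, 1 of the 8 mice stood apart from the rest, with a gap to its nearest neighbour above Dixon's limit for groups of this size. Chance alone flags about 1 in 20 groups. Among the groups that chose the probes, replicate 5 with 40 µg MWCNT at month 1 had 11.81 for probe 1380, where the others reached 11.36. Replicate 6 with 40 µg at month 12 had 8.83 for probe 2010, where the others lay between 7.87 and 8.26. Without these mice the differences from DM were 0.48 and 0.37. The lowest mouse for probe 2010 at month 6, DM replicate 2, had 7.22 against 7.72 to 8.09 in the others. With 80 µg at month 6, replicate 8 had 8.74 for probe 2010 against 7.73 to 8.12. Without these, the difference between 40 µg and DM at month 6 was 0.16 ± 0.12 and that between 80 µg and DM 0.12 ± 0.12. With 10 µg at month 6, replicate 7 had 10.45 for probe 1380 against 10.89 to 11.24. For probe 1416, DM replicate 3 at month 12 had 12.14 against 12.58 to 12.96, and replicate 3 with 1 µg at month 6 had 13.11 against 12.50 to 12.72. The cause of these values was not tested.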

How the results depend on the processing

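No paired analysis was possible because the labels give no replicate numbers. Slides were compared in the report and fitted as a random block. In the month that chose them, the differences between 40 µg and DM kept their direction under all 14 alternatives, at 0.48 to 0.60 for probe 1380, 0.59 to 0.74 for probe 1416, 0.32 to 0.66 for probe ORB_0409082 and 0.43 to 0.71 for probe 2010. The lowest value of probes 1380 and ORB_0409082 and the highest of probe 2010 came with position as a fixed term, which rests on 3 arrays. Leaving out each array gave 0.48 to 0.63, 0.52 to 0.76, 0.43 to 0.57 and 0.37 to 0.51. All these values rest on the arrays that chose the probes, so the kept direction is a description and no test. Only values near 0 changed sign. Probe 2010 at month 1 was -0.0526 with trimmed mean scaling, -0.0704 with the subtraction and scaling of the methods, -0.0961 in the deposited table, -0.00763 with scan day and -0.00424 without the 3 unusually placed arrays (-0.0178 to 0.0686 over single arrays left out). Probe 1380 at month 6 was 0.0158 with trimmed mean scaling (-0.0922 to 0.0104 over single arrays), and against 1 µg and crocidolite it was 0.00722 with brightness as a term. Probe 1380 at month 12 was -0.0162 with trimmed mean scaling, -0.0386 with the methods' subtraction and scaling, -0.0408 in the deposited table, -0.0534 with position and -0.0228 without the 4 arrays of a redip scan (-0.0570 to 0.0775 over single arrays). The cause was not tested.

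The number of probes called, 0 in each month, was 5 at month 6 and 1 at month 12 with plain subtraction, 4 at month 6 with slide as a random block (correlation 0.10), 1 at month 12 with position, 2 at month 1 among probes above threshold on all arrays and 3 at month 1 without the 3 arrays. The call at month 12 was probe 2010 each time, the 4 probes held 1 of the 2 and 2 of the 3 calls at month 1, and none was among those at month 6. The p values of months 1 and 12 chose the probes, so their calls there follow from that choice and carry no test. Single arrays left out gave 0 to 4 calls at month 1 (above 0 without 40 µg replicates 6, 7 or 8 or DM replicates 3, 4 or 7), 0 to 11 at month 6 (without 40 µg replicate 2 or DM replicates 1, 5 or 6) and 0 at month 12.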
